A study of Mus musculus with 16 samples.

Results

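Sodium dodecyl sulfate (SDS) is a detergent that irritates skin, and the response of mouse skin to it was followed here over the step from day 1 to day 3. The comparison rests on 4 of the 16 libraries of the study, 2 at day 3 and 2 at day 1 of topical SDS without any other agent, chosen by their sample labels. All are whole skin of 7-week-old mice, profiled by RNA sequencing. The other libraries are days 0 and 5 of SDS alone and the same 4 days of SDS with Topsym, a brand of the corticosteroid fluocinonide (the labels give only the brand). The sources used here do not give strain, sex or genotype. The labels state 4 days of topical treatment but do not tie the day in a title to the first or the last application, and no title names skin left without SDS at day 1 or day 3. Time and further exposure to SDS therefore cannot be told apart in this comparison. In whole skin, fewer cells of a type and less RNA per cell cannot be told apart either.

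As background, an irritant that breaks the skin barrier makes keratinocytes release preformed interleukin 1 and new chemokines. Neutrophils leave the blood through activated vessels, follow CXC chemokines that bind the receptor CXCR2, and are followed by monocytes that become macrophages. Keratinocytes at the edge of an injury switch to stress keratins and lay down less of the barrier proteins, and fibroblasts and macrophages remodel the matrix beneath.

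The 4 libraries held 26102598 and 22220880 reads at day 3, against 21199889 and 24145600 at day 1. Values below are normalised reads, the read counts scaled by the authors for depth, and are given for each library. Changes are differences of log2(normalised reads + 1), day 3 minus day 1, with their standard error (SE) and an adjusted p from limma, called at 0.05. Adding 1 understates the change of low genes. Whether both libraries of a day are from different mice is not stated, and the p-values therefore reflect library-to-library spread that may be only technical. Markers of keratinocytes, fibroblasts, fat, follicles, vessels, pigment cells, mast cells, muscle and blood were read in all 4 libraries, 24 of 26 in all. The exceptions were neutrophil markers at day 1, where Ly6g had 0 reads in both libraries and Ngp in 1.

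Between day 1 and day 3 the skin changed broadly. Of 19189 genes tested, 8099 were called (42.2%), 4537 higher at day 3 (23.6%) and 3562 lower (18.6%). At least a 2-fold change was met by 1461 genes higher (7.61%) and 1272 lower (6.63%). The highest rises included neutrophil granule genes and CXC chemokines, and the deepest falls included genes of matrix, tendon and Langerhans cells. With so many genes called, a list of genes is read below against these shares and against the median change of all genes, 0.036.

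**Figure D1:**
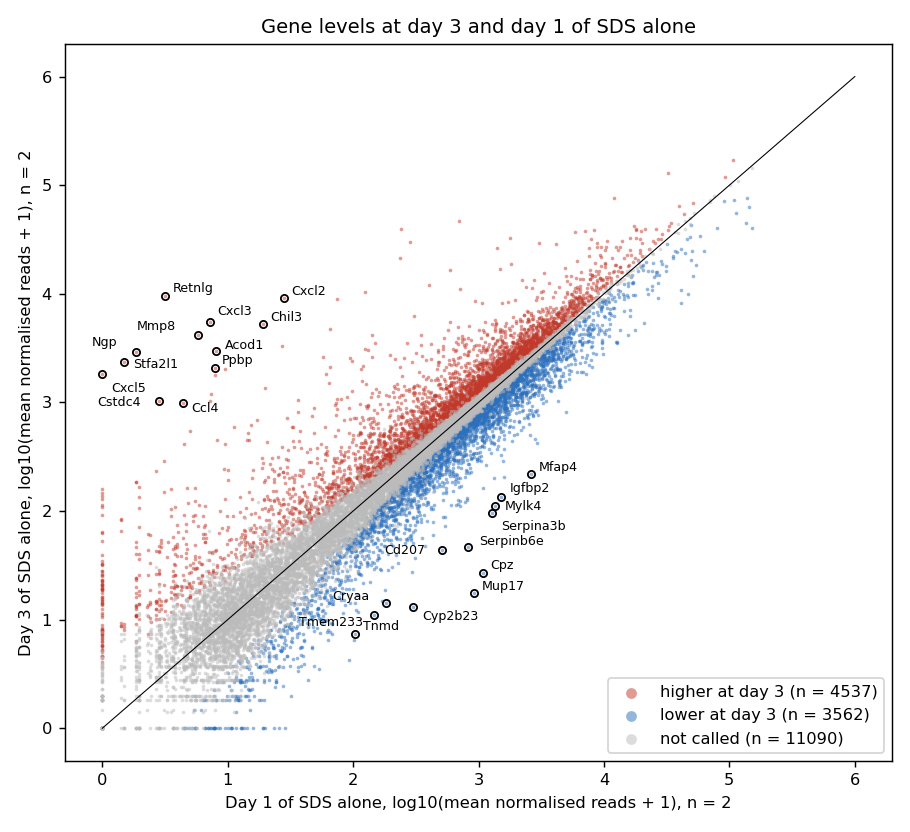
Mean normalised reads of each tested gene at day 3 (vertical, log10 of the mean plus 1) against day 1 (horizontal, same scale), 2 libraries each. Red and blue points are the 4537 genes called higher and the 3562 called lower at day 3, grey points were not called, the line marks equal levels, and the 12 largest rises and 12 largest falls among genes with a mean of at least 100 at the higher day, chosen by the naming rule, are named; the named rises lie near the left edge, at few or no reads at day 1.

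Genes of neutrophils, the first white cells to enter injured tissue, were among those with the largest rises. Of 26 tested genes of the neutrophil list (28 listed), 23 rose and 0 fell, with a median log2 change of 5.65, or 5.42 with the 4 genes that had 0 reads at day 1 set at their lower bound. Retnlg (chromosome 16, 48872621 to 48874496), a secreted resistin-like protein of granulocytes, had 9555 and 9618 at day 3, against 0.971 and 3.36 at day 1. Its change of 11.68 ± 0.52 (adjusted p = 2.28e-11) was the highest of the genes named. Mmp8 encodes the neutrophil collagenase, stored in granules, and had 4086 and 4190.1 at day 3, against 2.91 and 6.72 at day 1, a change of 9.56 ± 0.55 (adjusted p = 4.44e-10). Ngp, a granule protein made in developing neutrophils, had 2912 and 2949.9 at day 3 and 2 reads in all at day 1, a ratio of 3253 (95% counting interval 900 to 26900). Stfa2l1, a stefin that inhibits cysteine proteases, had 5198 reads at day 3 and 1 at day 1, a ratio of 5177 (929 to 205000). Another stefin-like gene beside it, Cstdc4, rose by 8.51 ± 0.68. Both day 3 libraries lay above both day 1 libraries for each of these genes, as they did for 38.8% of all genes tested, with the reverse in 33.3%. The naming rule required this of the 12 highest rises, these genes among them. These intervals, like the floors below, allow for counting error alone and treat reads as independent molecules. In the 4 libraries 70.3 to 71.9% of recovered counts between 1 and 20 were even, so both mates of a pair may have been counted, and intervals and floors are then too tight.

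Ly6g, the surface antigen used to sort mouse neutrophils, had 122 and 151 at day 3 and no read in either day 1 library. By a floor of 3 reads over the group it was at least 99.9-fold higher. It passed the filter for testing only through its day 3 libraries, so the direction of its change was fixed beforehand. Its call by limma (adjusted p = 3.72e-07), not shared by DESeq2 (0.172), is therefore no support for a rise, here or in a list count. No read of it was counted in any of the other 12 libraries, day 5 included. Receptors by which neutrophils sense bacterial peptides and growth factor rose as well, Fpr1 with 1256 and 1149 at day 3, against 7.77 and 5.04 at day 1, Fpr2 by 5.33 and Csf3r, the receptor of granulocyte colony-stimulating factor, with 3146 and 3102 at day 3, against 126 and 121 at day 1. Cxcr2, the receptor of most of the chemokines described next, had 2728 and 2922 at day 3, against 347 and 287 at day 1 (change 3.16 ± 0.23, adjusted p = 7.64e-09). S100a8 and S100a9 form calprotectin, a metal-binding protein of neutrophils that stressed keratinocytes also make. S100a9 had 30140.5 and 29855 at day 3, against 302 and 265 at day 1, a change of 6.72 ± 0.11, and S100a8 changed by 6.38 ± 0.16. At day 5 S100a9 stood at 210535 and 220928, above both day 3 libraries, while Mmp8 stood at 159 and 147, below them.

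The list of CXC chemokines that attract neutrophils rose in 6 of 6 members, with a median log2 change of 8.21. Cxcl2 had 9100.4 and 9093 at day 3, against 24.3 and 30.2 at day 1, a change of 8.34 ± 0.32 (adjusted p = 3.02e-12). Cxcl3 had 5457 and 5459 at day 3, against 5.83 and 6.72 at day 1, and Cxcl5, which keratinocytes and other epithelia secrete, had 1895 and 1720.4 at day 3 and no read at day 1, at least 1343-fold higher. Ppbp, the platelet precursor of a CXCR2 ligand, had 2101 and 2046 at day 3, against 8.74 and 5.04 at day 1. Cxcl1, already present at day 1, had 835 and 943 at day 3, against 93.2 and 91.5 at day 1 (change 3.25 ± 0.18), and Pf4, a platelet chemokine on the list that is not a CXCR2 ligand, changed by 2.53 ± 0.12. In all 6 the day 3 libraries lay above the day 1 libraries, as in 38.8% of all genes tested. The naming rule required this of the highest rises, Cxcl2, Cxcl3, Cxcl5 and Ppbp among them.

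The promoters of Cxcl1, Cxcl2 and Cxcl3 are shown because these chemokine genes, which lie near each other on chromosome 5, all rose, by unequal amounts, and hold the same letters of an NF-kB motif close to their start. Each run is the 250 bases before the RefSeq start on the plus strand of GRCm38.p6, and capitals mark matches to an NF-kB motif on either strand, spelled GGG, any 2 bases, then TTTCC.
Cxcl1 (chr5:90890995-90891244): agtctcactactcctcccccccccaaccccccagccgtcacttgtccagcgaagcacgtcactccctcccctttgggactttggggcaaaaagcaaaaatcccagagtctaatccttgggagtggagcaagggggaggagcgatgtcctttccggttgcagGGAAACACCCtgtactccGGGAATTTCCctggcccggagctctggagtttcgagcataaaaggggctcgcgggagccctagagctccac
Cxcl2 (chr5:90903649-90903898): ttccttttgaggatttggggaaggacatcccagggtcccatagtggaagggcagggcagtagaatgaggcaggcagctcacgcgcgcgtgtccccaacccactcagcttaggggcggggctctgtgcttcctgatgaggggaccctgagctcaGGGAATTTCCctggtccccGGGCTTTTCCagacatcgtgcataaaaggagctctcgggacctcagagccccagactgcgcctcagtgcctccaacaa
Cxcl3 (chr5:90785851-90786100): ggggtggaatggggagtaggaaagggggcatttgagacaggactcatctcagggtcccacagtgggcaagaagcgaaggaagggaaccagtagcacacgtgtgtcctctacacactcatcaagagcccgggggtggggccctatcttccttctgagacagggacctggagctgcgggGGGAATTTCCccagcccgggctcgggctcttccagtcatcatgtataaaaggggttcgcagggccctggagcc
The motif was in 3 of the 5 chemokine promoters at hand (60%), against 1.42% of 16877 promoters of the same length, and none was in the promoter of Ppbp, which rose by 8.08 ± 0.59. GGGAATTTCC occurs in each of the 3. The C/EBP motif TTGCNNAA was in 8 of 27 neutrophil promoters (29.6%) and 6 of 12 acute phase promoters (50%), against 8.74% of all. The AP-1 motif TGANTCA and the STAT motif TTCNNNGAA were also searched on both strands, and were in 3 of 18 (16.7%) and 2 of 18 (11.1%) promoters of the interleukin 6 list, against 5.85% and 6.38% of all. The NF-kB motif was in 0 of 27 neutrophil promoters. The runs of Cxcl1, Cxcl2 and Cxcl3 resemble each other near the start, so they need not be independent cases. A match is a run of letters, not a bound site.

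Other chemokines split. In the CC family, whose members draw monocytes, lymphocytes and dendritic cells, 6 of 19 tested genes rose and 4 fell, with a median of 0.31. Of all genes tested, 23.6% rose and 18.6% fell. Ccl3 and Ccl4, chemokines of activated macrophages, led the rises, Ccl3 with 2121 and 1978 at day 3, against 6.80 and 10.1 at day 1, and Ccl4 with 995 and 973 at day 3, against 0 and 6.72 at day 1. Ccl2, which calls monocytes from the blood, rose by 2.04 ± 0.37. Ccl22 and Ccl17, ligands of CCR4 made largely by dendritic cells, fell. Ccl22 had 122 and 126 at day 3, against 689.5 and 682 at day 1 (change -2.45 ± 0.12), and Ccl17 had 70.8 and 90.4 at day 3, against 389 and 382 at day 1 (change -2.26 ± 0.37). Of 7 CXC chemokines that act on lymphocytes or are made at rest, 4 rose and 1 fell (median 1.28; 2 fell without the first day 3 library). Cxcl13, the B cell chemokine, had 7969 and 8725 at day 3, against 1831 and 1589.8 at day 1, and Cxcl9, an interferon-induced one, had 107 and 144 at day 3, against 30.1 and 14.3 at day 1.

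Several cytokines of the early inflammatory cascade rose. In the interleukin 1 family 8 of 17 genes rose and 5 fell (median 0.32). Il1b had 4089.8 and 4279 at day 3, against 159 and 122 at day 1, a change of 4.90 ± 0.14 (adjusted p = 1.1e-13), and Nlrp3, the inflammasome sensor that leads to its cleavage, had 2482 and 2312 at day 3, against 100.03 and 92.3 at day 1. Il1a, which keratinocytes store, changed by 0.32 ± 0.11, not called without any 1 of the 4 libraries (0.29 to 0.35, adjusted p = 0.068 to 0.128), and the keratinocyte cytokine Il18 fell, with a change of -1.04 ± 0.074. Il1rl1, the interleukin 33 receptor, rose by 2.18 and Il33 itself by 1.54. In the interleukin 6 and STAT3 list 14 of 20 genes rose and 5 fell (median 0.80), or 3 fell without the first day 1 library. Csf3, the granulocyte growth factor, had 568 and 614 at day 3, against 15.5 and 5.04 at day 1. Osm (oncostatin M) had 468 and 422 at day 3, against 7.77 and 6.72 at day 1, and Il6 had 91.6 and 84.6 at day 3, against 1.94 and 6.72 at day 1. Il6 reached the 10 required by the filter only in the day 3 libraries of SDS alone. Its direction was thus fixed beforehand, and its place among the 14 is no support. Il24 and Il19, relatives of interleukin 10 that act on keratinocytes, rose by 3.81 ± 0.59 and 3.30 ± 0.52, and Socs3, the feedback inhibitor of STAT3 signalling, by 2.19 ± 0.075. The receptor parts Il6ra and Il22ra1 fell, with changes of -0.61 and -0.90, while other receptors named here, such as Csf3r and Il1rl1, rose. In the TNF and NF-kB feedback list 11 of 15 rose and 0 fell (median 0.58). Tnf had 942 and 929 at day 3, against 61.2 and 78.9 at day 1, and the inhibitors Tnfaip3 and Nfkbia rose by 1.14 ± 0.098 and 0.65 ± 0.058.

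Acute phase proteins, which bind lipids, iron or microbes in inflamed tissue and plasma, rose in 10 of 15 tested genes and fell in 3, with a median of 2.10. Saa3, a serum amyloid A made largely outside the liver, had 40902 and 38580.0 at day 3, against 244 and 235 at day 1, a change of 7.37 ± 0.30 (adjusted p = 7.77e-12). The pattern recognition protein Ptx3 had 1400.2 and 1285 at day 3, against 13.6 and 24.3 at day 1. Saa1 and Saa2 rose by 6.76 ± 0.82 and 4.88 ± 0.52, though reads of these near copies can be shared. Haptoglobin (Hp) and ceruloplasmin (Cp) changed by 3.27 ± 0.098 and 2.10 ± 0.10. The orosomucoids Orm1 and Orm3 fell, Orm1 with 1574 and 1715 at day 3, against 5352 and 5188 at day 1 and Orm3 by 1.93 on the log2 scale, a fall not called without the second day 3 library (-1.74, adjusted p = 0.0528). For the members said to rise or fall, the libraries of the days did not overlap. Of all genes tested, 38.8% were higher and 33.3% lower at day 3 without overlap.

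**Figure D2:**
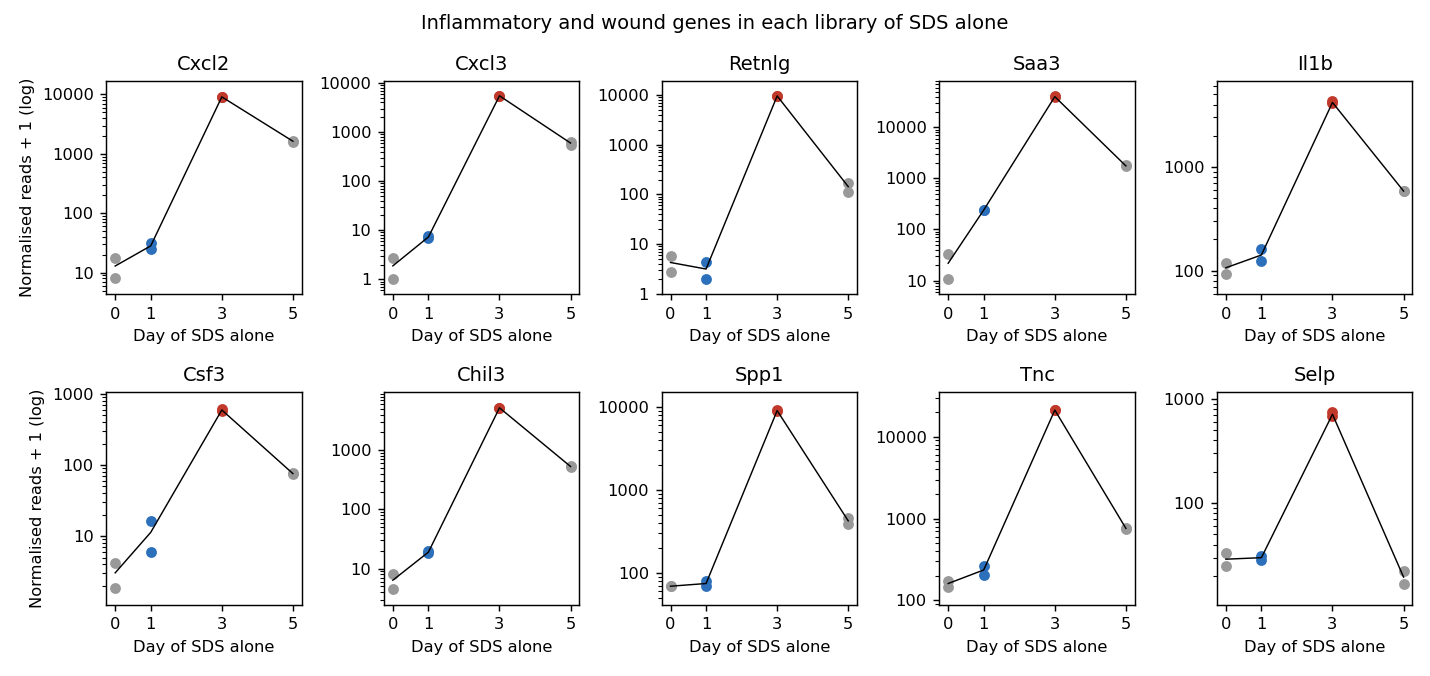
Normalised reads plus 1 (vertical, log scale) of 10 inflammatory and wound genes in each library of SDS alone against day (horizontal, days 0, 1, 3 and 5); points are libraries (day 3 red, day 1 blue, others grey) and lines join the means of 2. Every gene shown is highest at day 3, for example Retnlg at 9555 and 9618 there.

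Macrophage genes rose and antigen presentation genes fell. In the monocyte and macrophage list 15 of 24 rose and 1 fell (median 1.06). Chil3, a chitinase-like protein of recruited macrophages, had 5270.2 and 5159 at day 3, against 17.5 and 18.5 at day 1, and Ly6c2, a marker of inflammatory monocytes, had 432 and 473 at day 3, against 10.7 and 15.9 at day 1. Nos2, the inducible nitric oxide synthase, had 393 and 439 at day 3, against 1.94 and 5.04 at day 1. Acod1, which makes itaconate in activated macrophages, had 3005 and 2956 at day 3, against 5.83 and 8.39 at day 1. Mrc1, Cd163 and C1qb, markers of resident macrophages, changed by 1.25, 1.21 and 0.36, against the list median of 1.06. The genes above were named for their large changes, so a contrast with these markers would follow from that choice. Neutrophils also express several of the macrophage genes, and the summed neutrophil list moved alongside, at 120092 and 118883 at day 3, against 9362 and 8963 at day 1. That sum stood higher still at day 5, at 273223 and 283058, where Mmp8 stood at 159 and 147, so it does not follow every neutrophil gene. The part of neutrophils in these changes was not tested.

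In the dendritic and Langerhans cell list 8 of 16 genes fell and 2 rose (median -0.93). Cd207 (langerin; chromosome 6, 83671215 to 83677857), which forms the granules of Langerhans cells, had 33.3 and 51.5 at day 3, against 536 and 484 at day 1, a change of -3.59 ± 0.23 (adjusted p = 1.82e-09). Mgl2, a lectin of dermal dendritic cells, had 604 and 591 at day 3, against 2315 and 2200.1 at day 1, and Xcr1, which marks cross-presenting cells, had 3.33 and 0 at day 3, against 19.4 and 26.9 at day 1. Fscn1, an actin bundler of mature dendritic cells, rose by 1.32 ± 0.063. Siglech, a marker of plasmacytoid dendritic cells, changed by -2.11 ± 0.71 (adjusted p = 0.0248), and its call was lost without either day 1 library (adjusted p = 0.117 and 0.0694), without the second day 3 library (-1.21, adjusted p = 0.266) and with DESeq2 (adjusted p = 0.0533).

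MHC class II genes, which load and display peptides to helper T cells, fell in 9 of 10 (median -1.86). Cd74, the invariant chain, had 11063 and 10784 at day 3, against 42839 and 38886 at day 1, a change of -1.90 ± 0.051 (adjusted p = 5.32e-14). H2-Aa had 3723 and 3478 at day 3, against 12994 and 12487 at day 1, H2-Ab1 4212 and 4157 at day 3, against 15695 and 15164 at day 1 and H2-Eb1 3584 and 3557 at day 3, against 12608 and 12260.4 at day 1, so that the chains changed by similar amounts, from -1.88 for H2-Ab1 to -1.800 for H2-Eb1. Ciita, the coactivator that drives this gene set, had 50.8 and 61.2 at day 3, against 346 and 357 at day 1. Ctss, the protease that trims the invariant chain, rose by 0.84 ± 0.077. Of the low members, H2-Ob changed by -3.11 ± 0.51, while H2-Oa had 2 reads at day 3 and 22 at day 1, a ratio of 0.0905 (95% counting interval 0.0103 to 0.368), and its call was lost when any library but the second of day 3 was left out, for example without the first day 3 library (-1.84, adjusted p = 0.20). The 250 bases before H2-Aa and H2-Eb1 are shown because they hold the Y box of class II promoters, CTGATTGG in capitals, at a similar distance from the start. Both are read 5′ to 3′ along the gene (GRCm38.p6), H2-Aa on the minus strand and H2-Eb1 on the plus strand.
H2-Aa (chr17:34287824-34288073): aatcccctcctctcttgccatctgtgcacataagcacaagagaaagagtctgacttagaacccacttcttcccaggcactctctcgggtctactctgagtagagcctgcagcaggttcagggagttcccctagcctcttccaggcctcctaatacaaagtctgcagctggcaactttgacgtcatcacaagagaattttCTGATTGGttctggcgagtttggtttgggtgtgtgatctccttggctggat
H2-Eb1 (chr17:34305617-34305866): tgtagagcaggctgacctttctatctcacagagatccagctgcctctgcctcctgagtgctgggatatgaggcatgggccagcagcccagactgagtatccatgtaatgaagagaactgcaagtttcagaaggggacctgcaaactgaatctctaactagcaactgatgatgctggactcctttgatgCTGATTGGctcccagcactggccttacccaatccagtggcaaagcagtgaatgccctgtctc
The first base of the motif lies 51 bases before the start of H2-Aa and 62 before that of H2-Eb1. Searched on both strands, it was in 3 of 7 class II promoters (42.9%), against 5.02% of all promoters.

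In the T and NK cell list 12 of 21 tested genes fell, 0 rose and 9 were not called (median -1.24). Among parts of the T cell receptor, Cd3e had 33.3 and 32.1 at day 3, against 154 and 125 at day 1, and Cd3g had 43.3 and 41.8 at day 3, against 173 and 148 at day 1. Xcl1, a chemokine of activated T and NK cells, had no read at day 3 against 26.2 and 18.5 at day 1, at least 16.4-fold lower. Cd8a also had no read at day 3 (at least 4.02-fold lower), but its call was lost without either day 3 library (adjusted p = 0.0861) or without the first day 1 library (0.167). Of 5 tested B cell genes 1 fell, Ighm, with 307 and 376 at day 3, against 1007 and 892 at day 1 (list median -0.31; 2 fell without the first day 3 library). In the mast cell list 4 of 10 rose and 2 fell (median 0.29), or 1 fell without the first day 1 library or either day 3 library. Of all genes tested, 23.6% rose and 18.6% fell. Fcer1a, a chain of the IgE receptor, had 75.8 and 104 at day 3, against 0 and 5.04 at day 1, the tryptases Tpsab1 and Tpsb2 changed by 2.06 ± 0.52 and 0.68 ± 0.096, and Mrgprb2, a receptor for peptides, fell, with a change of -1.91 ± 0.24.

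Few interferon-induced genes were called. Of 24, 3 were called higher and 1 lower, with a median of 0.18 (0.083 without the second day 1 library), and 20 were not called. Isg15 had 144 and 128 at day 3, against 64.1 and 50.4 at day 1. Zbp1 changed by 0.80 ± 0.24 (adjusted p = 0.0125), a call lost without either day 3 library (adjusted p = 0.0542 and 0.0653) or the second day 1 library (0.0778). Rtp4 changed by 0.67 ± 0.18, not called without the second day 1 library (0.50, adjusted p = 0.0862). Without the second day 1 library 1 gene of the list was called higher, and without the first library of either day 0 were called lower. With the day 5 groups left out of the fit, 9 were called higher and 4 lower, and with DESeq2 6 and 3.

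Complement genes rose in 11 of 16 and fell in 3 (median 0.70). C5ar1, the receptor by which leukocytes sense the C5a fragment, had 3012 and 3216 at day 3, against 561 and 480.1 at day 1, and C3 itself changed by 0.72 ± 0.039. The cell surface inhibitors Cd55 and Cd59a fell, with changes of -0.89 ± 0.13 and -0.78 ± 0.096. Among eicosanoid genes 11 of 19 fell and 5 rose (median -1.04). Ptgs2, the inducible cyclooxygenase, had 652 and 733 at day 3, against 107 and 132 at day 1, and Alox5ap, which activates leukotriene synthesis in leukocytes, had 1298 and 1185 at day 3, against 311 and 298 at day 1. The epidermal lipoxygenases Alox12b and Aloxe3, which build the lipid envelope, fell, with changes of -1.40 ± 0.047 and -1.70 ± 0.056, and Ptgds, a prostaglandin D synthase, had 48.3 and 29.2 at day 3, against 242 and 193 at day 1.

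Keratinocytes showed stress genes higher and barrier genes lower. In the list of stress keratins and antimicrobials 22 of 29 genes rose and 4 fell (median 1.70). Krt6b had 17098 and 15736 at day 3, against 603 and 579 at day 1, a change of 4.79 ± 0.10 (adjusted p = 4.61e-15), and Krt6a, its near copy, had 29864 and 27945 at day 3, against 4233 and 4037 at day 1. Krt16, their partner, rose by 2.66 ± 0.074. The antimicrobial peptide Defb4 had 102 and 107 at day 3, against 0 and 5.04 at day 1. Late cornified envelope genes of the Lce3 group, known from injured epidermis, rose except Lce3c (0.16 ± 0.098, adjusted p = 0.198), Lce3a by the most (1.82 ± 0.44, not called without the second day 1 library, adjusted p = 0.056), and Sprr2b, a small proline-rich envelope protein, had 161 and 157 at day 3, against 0 and 5.04 at day 1. Slurp1, a secreted regulator, and involucrin (Ivl) fell, with changes of -1.55 ± 0.12 and -0.67 ± 0.052. Reads of Krt6, Sprr2, Lce3 and Defb genes can be shared between near copies. Levels at day 5 were higher still for Krt6b, at 147376 and 145418, and for Sprr2b, at 14624 and 14173.

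In the epidermal differentiation list 25 of 29 genes fell and 2 rose (median -0.98). Krt10, the keratin of cells that leave the basal layer, had 47142 and 42945 at day 3, against 139009 and 130720.0 at day 1, a change of -1.58 ± 0.051 (adjusted p = 4.54e-13). Its partner Krt1 went the other way, with 38574 and 38440.0 at day 3, against 34189 and 30821 at day 1 and a change of 0.25 ± 0.053. Flg2, a filaggrin relative, had 5311 and 5431 at day 3, against 20051 and 21708 at day 1, loricrin (Lor) changed by -1.19 ± 0.11, and the Lce1 genes of the normal envelope by about as much, from -1.55 for Lce1m to -1.45 for Lce1a1. Tgm3, a cross-linking enzyme, rose by 0.56 ± 0.067. Krt2 had 2 reads at day 3 and 24 at day 1, a ratio of 0.083 (95% counting interval 0.00951 to 0.334). In the basal layer list 10 of 16 fell and 5 rose (median -0.58). Col17a1, the hemidesmosome collagen that anchors basal cells, had 20476 and 20042 at day 3, against 49799 and 48799.8 at day 1, and Trp63, the basal transcription factor, had 3569.6 and 3736 at day 3, against 7462 and 7503 at day 1. Krt14 had 118436 and 118022 at day 3, against 96863 and 89057 at day 1 and rose by 0.35 ± 0.047, while its partner Krt5 fell, with a change of -0.56 ± 0.05. Cd44, a receptor for hyaluronan, rose by 0.81 ± 0.053.

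Genes of the EGF family split, with 5 of 11 higher and 4 lower (median 0.098, or 0.059 without the first day 1 library). Epiregulin (Ereg) had 837 and 791 at day 3, against 4715 and 5298 at day 1, a change of -2.62 ± 0.088, after 803 and 721 at day 0, so that its high level was seen at day 1 alone among the 4 days. Btc, another ligand, had 276 and 304 at day 3, against 1471 and 1648 at day 1. Hbegf had 1165 and 1216 at day 3, against 395 and 347 at day 1, and Areg and Nrg1 rose by 1.34 ± 0.17 and 1.84 ± 0.24. The receptor Egfr rose by 0.55 ± 0.058, while Erbb2 and Erbb3 fell, with changes of -0.92 ± 0.054 and -0.95 ± 0.048.

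Among 30 genes of cell proliferation 15 rose and 4 fell (median 0.39). The 3 with the largest rises act at the start of DNA replication or before it, Mcm5 with 772 and 852 at day 3, against 284 and 242 at day 1, Ccne1 with 139.9 and 118 at day 3, against 17.5 and 22.7 at day 1 and Cdt1 with 564 and 515 at day 3, against 213 and 175 at day 1. The 4 that fell act in mitosis, Cenpf, Nusap1, Ube2c and Kif11, with changes of -0.88 ± 0.11, -0.69 ± 0.10, -0.50 ± 0.098 and -0.40 ± 0.11, the call of Kif11 being lost without the second day 1 library or the first of day 3 (adjusted p = 0.0831 and 0.0887). Other genes of mitosis rose, such as Cdc20 by 0.66 ± 0.14. Mki67, read in cycling cells, had 1467 and 1522 at day 3, against 1538 and 1534 at day 1 and was not called (-0.04 ± 0.063, adjusted p = 0.664).

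More hair follicle and gland genes fell than rose, except that the hair shaft and inner root sheath list gave no clear direction. In the follicle stem cell list 13 of 18 fell and 1 rose (median -0.999), or 0 rose without the first library of either day. Lgr6, a marker of the upper follicle, had 227 and 186 at day 3, against 1621 and 1591 at day 1, a change of -2.96 ± 0.12 (adjusted p = 7.77e-12), and Krt15 had 18748 and 17931 at day 3, against 55962 and 52303 at day 1. Lgr5, a marker of the lower bulge, had 41.6 and 38.9 at day 3, against 108 and 123 at day 1, with a change of -1.49 ± 0.95 that was not called (adjusted p = 0.234), though it was called with edgeR (adjusted p = 0.00104) and DESeq2 (1.01e-05). In the list of hair cycle signals 14 of 29 tested fell and 2 rose (median -0.998), or 1 rose without the first library of either day. The Wnt ligand Wnt10b had 39.1 and 36.9 at day 3, against 160.2 and 156 at day 1, and Wnt7b had 387 and 448 at day 3, against 1291 and 1357 at day 1. The BMP antagonist Nog had 35.8 and 18.5 at day 3, against 88.4 and 73.9 at day 1. For comparison, 23.6% of all genes tested rose and 18.6% fell. Of 21 genes of the hair shaft and inner root sheath 2 rose and 3 fell (median 0.00, or -0.24 without the first day 1 library), most at low levels. Leaving out either day 1 library or the first of day 3 left 1 that rose, and leaving out the second day 1 library left 1 that fell. Dlx3, a transcription factor of the follicle and epidermis, had 401 and 385 at day 3, against 1089 and 1054 at day 1. Krt83 had 299 reads at day 3 and 2 at day 1, a ratio of 149 (95% counting interval 40.9 to 1240). Krt33a, with 2 reads at day 3 and 29 at day 1 (ratio 0.0687, 0.00794 to 0.272), lost its call without either day 1 library (adjusted p = 0.0528 and 0.0773) or the first of day 3 (-2.24, adjusted p = 0.142), and Krt86, with 18 and 1 (ratio 17.9, 2.83 to 747), lost it without either day 1 library (adjusted p = 0.0556 and 0.227) or the first of day 3 (1.07, adjusted p = 0.411). In the sebaceous list 12 of 18 tested fell and 4 rose (median -0.57). Cyp2g1, a cytochrome P450, had 399 and 437 at day 3, against 2949.5 and 2939.6 at day 1, and Awat2, a wax synthase, had 133 and 71.9 at day 3, against 465 and 402 at day 1. Elovl3 and Scd1, enzymes of long and unsaturated fatty acids, rose by 0.94 ± 0.13 and 0.89 ± 0.039.

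**Figure D3:**
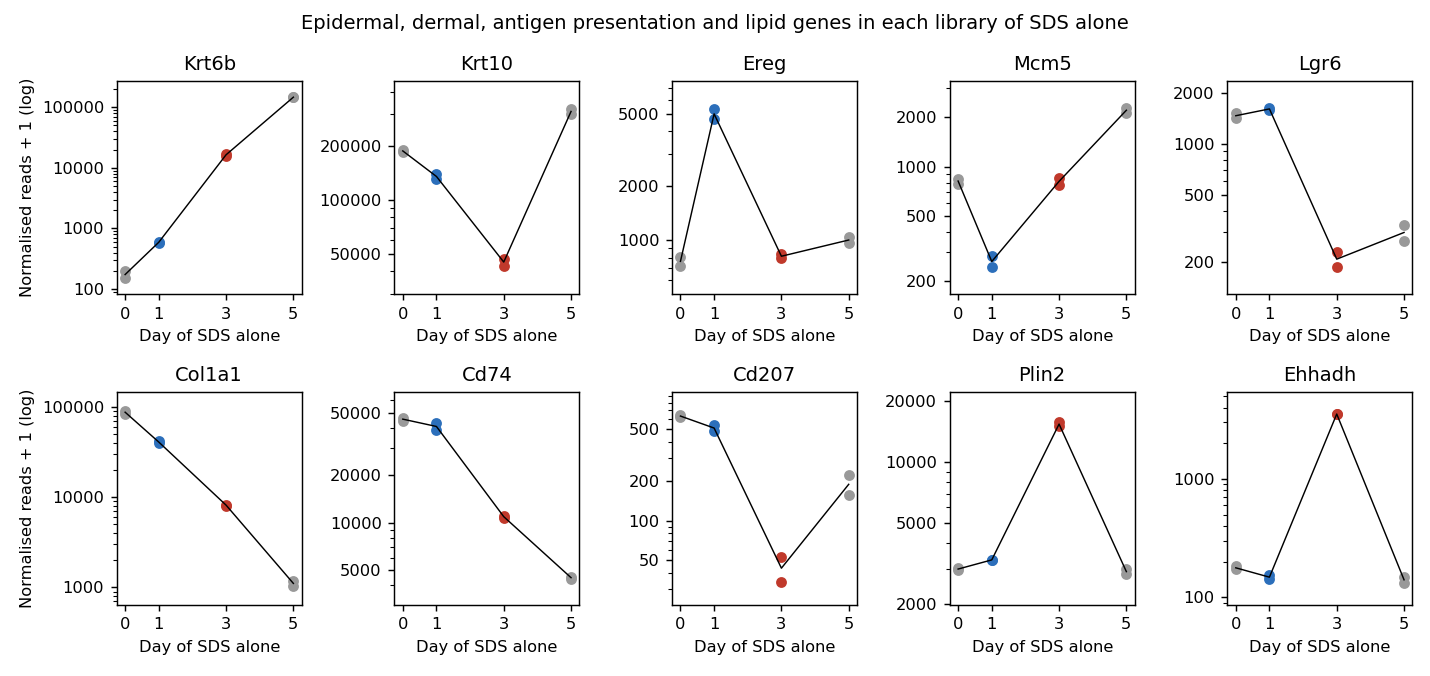
Normalised reads plus 1 (vertical, log scale) of 10 epidermal, dermal, antigen presentation and lipid genes in each library of SDS alone against day (horizontal, days 0, 1, 3 and 5); points are libraries (day 3 red, day 1 blue, others grey) and lines join the means of 2. Ereg is high at day 1 only, Plin2 and Ehhadh at day 3 only, and Col1a1 is lower at each later day.

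In the dermis, type I collagen fell while several genes of wound matrix rose. In the collagen and fibroblast list 11 of 26 fell and 8 rose (median -0.14). Of the chains of type I collagen, Col1a1 had 8275 and 8094 at day 3, against 42028 and 39872 at day 1, and Col1a2 had 10168 and 9730.3 at day 3, against 47739 and 45868 at day 1. Their changes were -2.32 ± 0.053 and -2.23 ± 0.051. Col3a1, of type III collagen, fell less, with a change of -0.36 ± 0.045. The fibroblast receptors Pdgfra and Pdgfrb rose by 1.22 ± 0.073 and 0.75 ± 0.11. In the wound matrix and protease list 17 of 26 rose and 4 fell (median 1.16). Spp1 (osteopontin; chromosome 5, 104435118 to 104441050), a matrix and macrophage protein, had 8851 and 9140.3 at day 3, against 78.7 and 68.8 at day 1, a change of 6.91 ± 0.14 (adjusted p = 2.63e-15). Tnc (tenascin C; chromosome 4, 63959785 to 64047015) had 21228 and 21031 at day 3, against 204 and 266 at day 1, a change of 6.50 ± 0.15. Timp1, which inhibits metalloproteinases, and the aggrecanase Adamts4 rose by 4.77 ± 0.29 and 4.88 ± 0.31, and the stromelysin Mmp3 by 2.86 ± 0.086. Postn (periostin) fell, with 1657 and 1501 at day 3, against 4104 and 4699.8 at day 1. Markers of neutrophils and macrophages moved alongside, as given above, and their part in these changes was not tested.

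Genes of blood vessels rose in 14 of 20 and fell in 0 (median 1.58). The selectins on which leukocytes roll came first, Selp with 678 and 745 at day 3, against 30.1 and 27.7 at day 1 and Sele with 159 and 211 at day 3, against 23.3 and 21.8 at day 1. Plvap, of vessel fenestrae, had 3638 and 3552 at day 3, against 678 and 651 at day 1, and Angpt2, which loosens vessels, had 506 and 468 at day 3, against 71.9 and 68.8 at day 1. General markers of endothelium rose too, Cdh5 with 2629 and 2749 at day 3, against 502 and 528 at day 1 and Pecam1 with 3361 and 3222 at day 3, against 958 and 887 at day 1. Of 12 smooth muscle and pericyte genes 6 fell and 2 rose (median -0.30, or -0.58 without the second day 3 library). Of the contractile genes, Actg2 had 198 and 199 at day 3, against 1435 and 1212 at day 1, and Myh11 had 1809.8 and 1978 at day 3, against 6865 and 6811 at day 1. Nerve and Schwann cell genes rose in 5 of 10 (median 0.54), the myelin gene Mbp by 0.55 ± 0.061. Of 6 tested pigment cell genes 2 fell (median -0.42; 1 rose without the first day 3 library), Dct with 5.83 and 19.4 at day 3, against 90.3 and 80.6 at day 1 and Pmel with 29.97 and 38.9 at day 3, against 113 and 95.7 at day 1. Red blood cell genes rose in 5 of 7 (median 0.91), their sum being 9412 and 11037 at day 3, against 5529 and 5061 at day 1. Without the second day 1 library 3 of them were called, and Hbb-bs (0.91 ± 0.25) was not called without the second day 3 library (0.56, adjusted p = 0.158) or the second day 1 library (0.83, adjusted p = 0.0619). Platelet genes rose in 3 of 5 (median 0.92), among them Ppbp and Pf4, which were also counted in the list of CXC chemokines above. Neutrophils circulate in blood, and the part of these genes' rise in the neutrophil result was not tested.

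Muscle beneath the skin and fat changed as well. Skeletal muscle genes rose in 13 of 21 and fell in 5 (median 0.50), their sum being 591773 and 593624 at day 3, against 418423 and 412687 at day 1. Actn2, which links actin at the Z disc, had 38254 and 39163 at day 3, against 8478 and 8191 at day 1, a change of 2.22 ± 0.041, while the abundant Ckm changed by 0.13 ± 0.046, not called without the second day 1 library or the first of day 3 (adjusted p = 0.183 and 0.207) or after TMM scaling (0.0537). Myog, a regulator of muscle differentiation, had 114 and 112 at day 3, against 27.2 and 24.3 at day 1, and Myod1, a regulator that acts before it, had 1.66 and 3.89 at day 3, against 31.1 and 18.5 at day 1. Myh7, of slow fibres, had no read at day 3 and 0.971 and 2.52 at day 1 (at least 1.34-fold lower, not called). In the muscle wasting and FoxO list 12 of 20 rose and 5 fell (median 0.69). Of the metallothioneins, which bind zinc, Mt1 had 30824 and 30149 at day 3, against 11050.2 and 10219.8 at day 1, and Mt2 had 154 and 142 at day 3, against 36.9 and 42.8 at day 1. The ubiquitin ligases Trim63 and Fbxo32 rose by 1.49 ± 0.061 and 0.82 ± 0.062, and Mstn (myostatin) had 151 and 189 at day 3, against 683 and 766 at day 1. How much muscle each sample held was not measured otherwise.

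Fat cell genes rose in 15 of 20 and fell in 4 (median 0.79). Fabp4, a fatty acid carrier, had 27863 and 26499.5 at day 3, against 9086 and 8596 at day 1, and Adipoq (adiponectin) had 2224 and 2166 at day 3, against 1177 and 1070.2 at day 1, while Lep (leptin) had 247 and 327 at day 3, against 1083 and 1022 at day 1. Aqp7, a glycerol channel, changed by 1.38 ± 0.50, and its call was lost without any 1 of the 4 libraries (1.19 to 1.56, adjusted p = 0.0783 to 0.182). In the lipolysis list 10 of 20 rose and 5 fell (median 0.37), or 3 fell without either day 1 library or the first of day 3. Plin2, which coats lipid droplets, had 15685 and 15126 at day 3, against 3324 and 3296 at day 1, a change of 2.22 ± 0.045 (adjusted p = 2.33e-15). Of the lipases, Pnpla2 had 22695 and 22772 at day 3, against 9668 and 8818 at day 1, and Lipe had 3148 and 3102 at day 3, against 1829 and 1761 at day 1. The lipase inhibitors G0s2 and Hilpda rose by 2.18 ± 0.25 and 2.01 ± 0.16. Fatty acid oxidation and PPAR target genes rose in 20 of 27 and fell in 2 (median 0.53), or 1 fell without the second library of either day. Ehhadh, a peroxisomal oxidation enzyme, had 3556 and 3509.7 at day 3, against 142 and 153 at day 1, a change of 4.58 ± 0.17, and Pdk4, which diverts glucose from oxidation, had 41192 and 42555 at day 3, against 17079 and 17311 at day 1 after 688 and 588 at day 0.

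Lipid synthesis gave no single direction, with 8 of 20 fatty acid synthesis genes higher and 8 lower (median 0.15), or 5 lower without the first day 3 library. Dgat1, which completes triglycerides, had 2253 and 2173 at day 3, against 721 and 606 at day 1, and Elovl5 fell, with a change of -1.14 ± 0.072. Thrsp changed by -2.02 ± 0.70 (adjusted p = 0.028), a call lost without any 1 of the 4 libraries (-1.95 to -2.10, adjusted p = 0.0873 to 0.114). In cholesterol synthesis 11 of 23 rose and 4 fell (median 0.14), or 7 rose without the first day 1 or the second day 3 library. Dhcr7 had 1719.8 and 1667 at day 3, against 3343 and 3017 at day 1 and Hsd17b7 had 1172 and 1198 at day 3, against 601 and 664 at day 1, enzymes of late steps. Fdps, an enzyme of a middle step, changed by 0.71 ± 0.25 and lost its call without any 1 of the 4 libraries (0.60 to 0.82, adjusted p = 0.0595 to 0.168).

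Stress programmes rose. The list of NRF2 and oxidative stress genes had 17 of 20 higher and 1 lower (median 0.81). Slc7a11, the cystine importer, had 2041 and 1998 at day 3, against 111 and 118 at day 1, Fth1, the iron-storing ferritin heavy chain, had 133071 and 126165 at day 3, against 32563 and 31879.8 at day 1, and Hmox1, heme oxygenase 1, rose by 1.796 ± 0.067. Gsta4, which detoxifies products of lipid peroxidation, had 2576 and 2486 at day 3, against 239.9 and 187 at day 1. Hypoxia and glycolysis genes rose in 18 of 25 and fell in 6 (median 0.61), Vegfa with 4246 and 4284 at day 3, against 1191 and 1142 at day 1 and Hif1a with 3331 and 3498 at day 3, against 1284 and 1421 at day 1, while Car9 fell, with a change of -1.12 ± 0.25. Unfolded protein response genes rose in 14 of 18 and fell in 1 (median 0.45), the chaperone Hspa5 with 14893 and 15512 at day 3, against 7636 and 7839 at day 1.

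Targets of the glucocorticoid receptor rose in 17 of 28 and fell in 7 (median 0.30), but in no single way. Lcn2, also a neutrophil gene, had 26430.3 and 26344 at day 3, against 1451 and 1348 at day 1, while Tsc22d3, a direct target, fell, with a change of -0.51 ± 0.053. Fkbp5, another direct target, had 10218 and 9915 at day 3, against 10914 and 10832 at day 1, a change of -0.11 ± 0.042 (adjusted p = 0.0423) whose call was lost without any 1 of the 4 libraries (-0.090 to -0.13, adjusted p = 0.0609 to 0.211) and with the replicate block (adjusted p = 0.0551). At day 0 it stood at 2246 and 2206. Immediate early genes, which also answer to handling, rose in 15 of 22 and fell in 5 (median 0.37), Fos with 3276 and 3412 at day 3, against 1031 and 863 at day 1. Of 18 clock genes 6 rose and 7 fell (median -0.057, or 0.049 without the second day 1 library), Dbp with 132 and 138 at day 3, against 349.6 and 332 at day 1 and Per2 by 0.99 ± 0.12, and the sources used here do not give the hour of sampling. The shares over all genes tested were 23.6% higher and 18.6% lower.

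Mitochondrially encoded genes fell in 5 of 13 (median -0.22, or -0.054 without the first day 3 library), mt-Atp6 with 2799 and 3159 at day 3, against 5150.2 and 4635 at day 1. Without the first day 1 library 3 were called, and mt-Nd4l (-0.59 ± 0.16) lost its call without the first library of either day (-0.52 and -0.53, adjusted p = 0.067 and 0.0625). Few ribosomal protein genes were called, with 2 of 24 higher, 1 lower and a median of 0.011. Rpl27 (0.19 ± 0.061) and Rps24 (-0.15 ± 0.04) lost the call when single libraries were left out, Rpl27 without the second day 3 library or either day 1 library (0.17 to 0.20, adjusted p = 0.0582 to 0.0985) and Rps24 without the first day 3 library (-0.13, adjusted p = 0.0688). Without the first day 1 library 4 were called higher, and without the second of day 1 or the first of day 3, 1. After TMM scaling 1 was higher and 2 lower. Xist, the only sex-linked gene of its list in the table, had 4154 and 4388 at day 3, against 6309.8 and 7573 at day 1, a change of -0.69 ± 0.067.

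**Figure D4:**
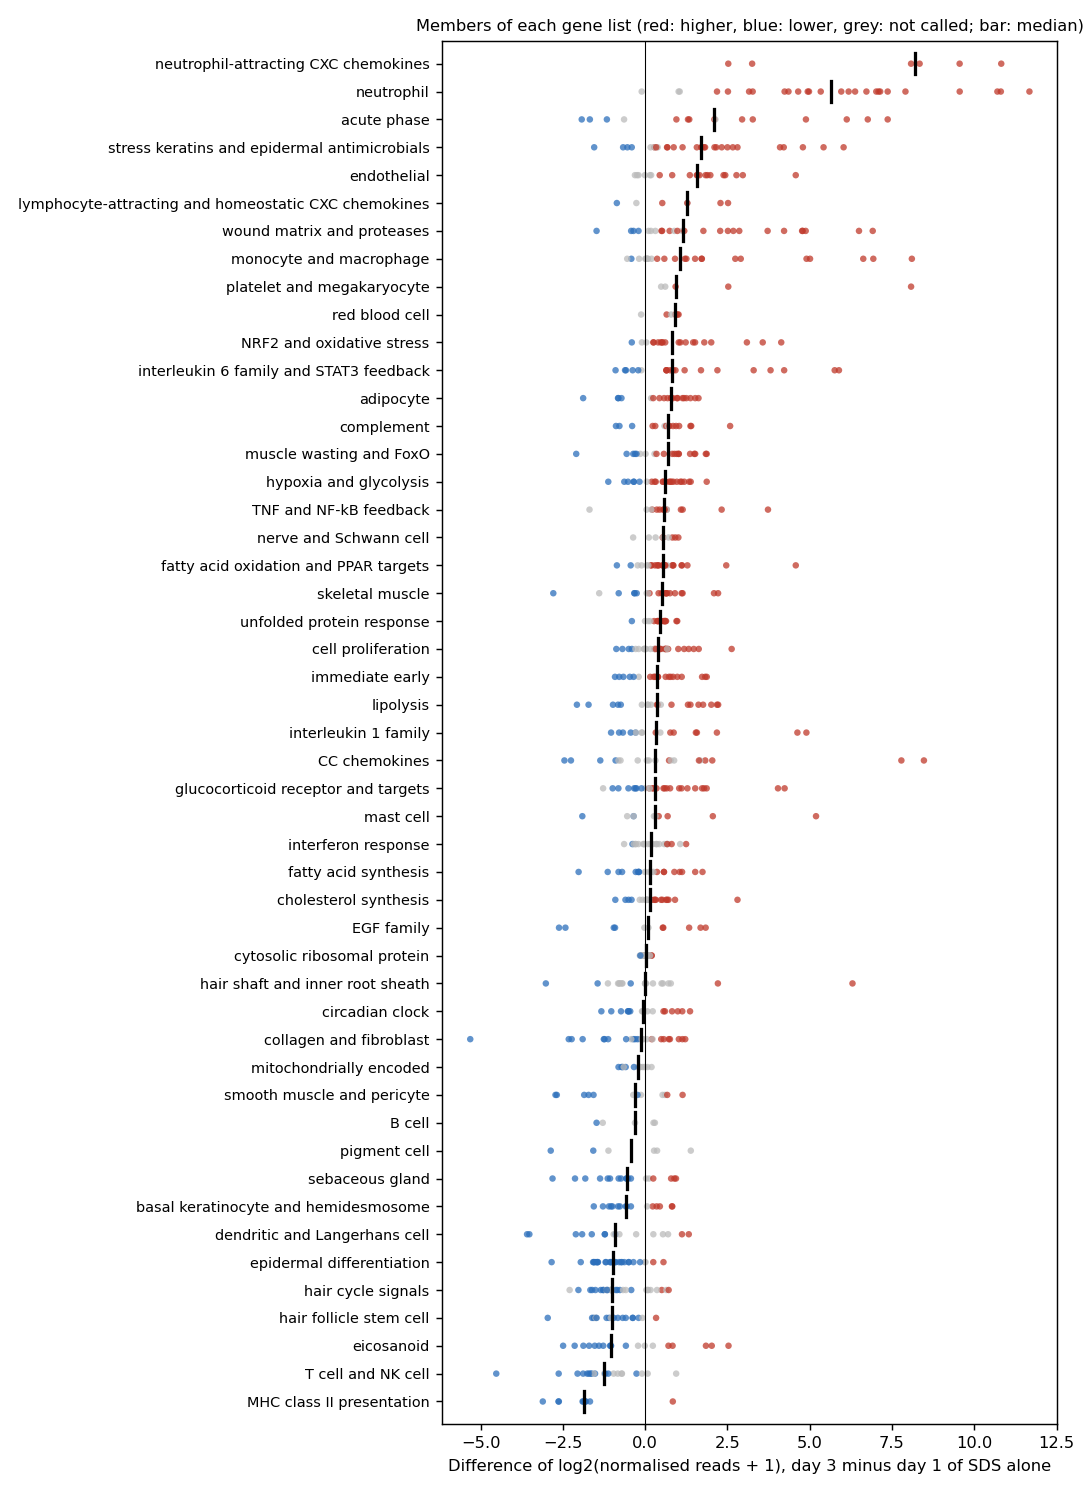
Change of each member (horizontal, difference of log2(normalised reads + 1), day 3 minus day 1) in the 49 gene lists with at least 4 tested members, ordered by median. Points are genes (red called higher, blue called lower, grey not called) and black bars are medians, from 8.21 for the neutrophil-attracting CXC chemokines to -1.86 for MHC class II presentation.

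The deepest falls among genes with a mean of at least 100 at day 1 came from several tissues. Mup17, a major urinary protein whose reads can be shared with near copies, had 12.5 and 20.4 at day 3, against 1003 and 846 at day 1, a change of -5.76 ± 0.63 (adjusted p = 1.18e-06), and at day 0 it differed widely between libraries, at 1301 and 248. Cpz (chromosome 5, 35502218 to 35525698), a carboxypeptidase of the matrix, had 26.6 and 25.3 at day 3, against 1156 and 994 at day 1, and Mfap4, a microfibril protein, had 231 and 203 at day 3, against 2678 and 2579 at day 1. Igfbp2, which binds insulin-like growth factors, had 134 and 131 at day 3, against 1572 and 1424 at day 1, a change of -3.49 ± 0.081. Tnmd (tenomodulin), of tendon and fascia, had 4.99 and 7.78 at day 3, against 106 and 101 at day 1, and Mylk4, a kinase of the myosin light chain family, had 102 and 118 at day 3, against 1257 and 1466 at day 1. Of 2 serine protease inhibitors, Serpina3b had 92.4 and 96.2 at day 3, against 1301 and 1241 at day 1, and Serpinb6e had 43.3 and 48.6 at day 3, against 811 and 834 at day 1. Cyp2b23, a cytochrome P450, had 12.5 and 11.7 at day 3, against 311 and 292 at day 1, with 22.9 and 22.4 at day 0, and Cryaa, a small heat shock protein of the crystallin family, had 5.83 and 20.4 at day 3, against 192 and 174 at day 1, with 30.8 and 20.8 at day 0, so both stood higher at day 1 than at days 0 and 3. Tmem233 had 8.32 and 11.7 at day 3, against 163 and 130.1 at day 1. In each of these genes both day 3 libraries lay below both day 1 libraries, as the naming rule required. The same held for 33.3% of all genes tested.

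The same step was also sampled with Topsym, and the 2 changes share no library, so their difference was tested in the same fit. It was called for 6683 of 19189 genes (34.8%), 3486 with the higher change in SDS alone (18.2%) and 3197 with the lower (16.7%). The neutrophil list had a median change of 5.65 in SDS alone and 0.81 with Topsym, and 23 of its 26 tested genes had the higher change in SDS alone by this test. Retnlg had 35.2 and 34.9 at day 3 and 8.997 and 21.7 at day 1 with Topsym, a difference between the changes of 10.42 ± 0.74 (adjusted p = 1.09e-08). For Mmp8 the levels with Topsym were 71.2 and 57.6 at day 3 and 52.3 and 40.2 at day 1 (difference 9.08 ± 0.77), and for Chil3 369 and 377 at day 3 and 441 and 445 at day 1 (difference 8.35 ± 0.32), so Chil3 was already read at day 1 with Topsym. Macrophage genes had the higher change in SDS alone in 24 of 24, interferon genes in 19 of 24, collagen and fibroblast genes in 23 of 26 and glucocorticoid receptor targets in 26 of 28. Levels at day 1 already differed between the arms, in either direction. With Topsym, Isg15 had 124 and 111 at day 1, against 64.1 and 50.4 in SDS alone. Col1a1 had 61932 and 61718, against 42028 and 39872, while Cpz had 832 and 851, against 1156 and 994. The difference between the changes therefore also holds where each arm began.

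The list medians in SDS alone and with Topsym were 1.06 and -1.15 for macrophages, 0.18 and -1.78 for interferon genes, and -0.14 and -1.83 for collagen and fibroblast genes. Col1a1 changed by -2.32 in SDS alone and by -4.88 with Topsym (difference 2.56 ± 0.075, adjusted p = 6.61e-13). Proliferation genes gave the reverse, with the lower change in SDS alone in 29 of 30 and medians of 0.39 and 2.00. Mki67 had 5225 and 5240.3 at day 3 and 1355 and 1259.6 at day 1 with Topsym, a difference of -2.04 ± 0.09 (adjusted p = 3.87e-11). Nrg1, the neuregulin ligand, had 1563 and 1426 at day 3 and 41.7 and 31.7 at day 1 with Topsym (difference -3.48 ± 0.34). The stress keratins and antimicrobials had the lower change in SDS alone in 17 of 29, but their medians were close, 1.70 in SDS alone and 1.95 with Topsym. Depdc1a, of mitosis, changed by -1.33 ± 0.50 in SDS alone, a call lost without either day 1 library (adjusted p = 0.0598 and 0.225) or the first of day 3 (-0.88, adjusted p = 0.292), and its difference was -3.52 ± 0.70 (adjusted p = 0.000805).

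**Figure D5:**
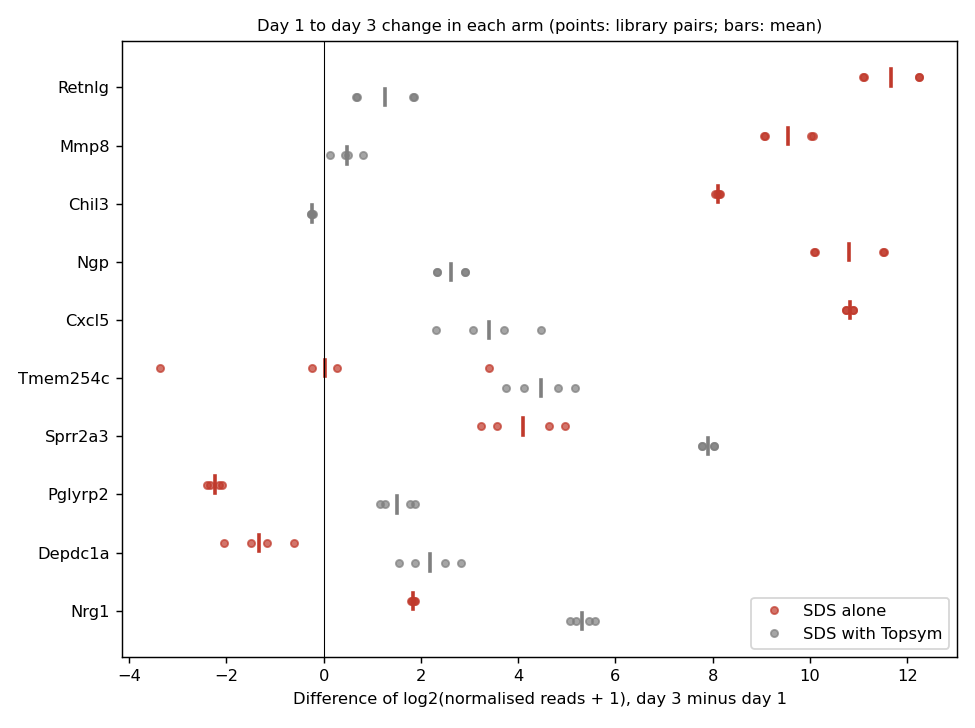
Change between day 1 and day 3 (horizontal, difference of log2(normalised reads + 1)) of the 5 genes with the highest and the 5 with the lowest difference between the arms, in SDS alone (red) and SDS with Topsym (grey). Points are the 4 pairs of libraries of an arm and bars their mean. The 2 arms do not overlap for any gene shown because the genes were chosen so. The points of Tmem254c in SDS alone run from -3.36 to 3.40.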

How the data were processed

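RNA from whole skin was sequenced from strand-specific libraries, per the labels' protocols. Trim Galore 0.6.7, HISAT2 2.2.1, featureCounts 2.0.3 and DESeq2 2.11.40.8 are named in the submitters' processing notes, with the build mm10. Values deposited by the authors are a normalised signal per gene, and by their steps are read counts divided by a factor for each library: whole reads were recovered (within 1e-04) and tested in 15 of the 16 libraries. In the remaining library, day 0 with Topsym, the factor of 0.9948 is too near 1 to tell its steps from rounding, so it entered only the tests on normalised values. The sources used here do not say whether counting used strand. Libraries held 15199656 to 32066246 reads.

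log2(value + 1) of 19189 genes (at least 10 in 2 or more of the 16 libraries) was modelled by limma 3.58.1 (R 4.3.3; trended prior, 1 mean for each of 8 groups, 8 residual degrees of freedom), with p-values adjusted by Benjamini-Hochberg over all genes and called at 0.05. An exact permutation test of 2 against 2 libraries could not pass this threshold. Alternatives were edgeR 4.0.16 and DESeq2 1.42.0 on recovered reads, TMM scaling, other filters and pseudocounts, and leaving out libraries. In data simulated for the day 3 against day 1 comparison (18767 genes) the fit recovered 55.2% of 1.5-fold, 76.1% of 2-fold and 84.8% of 4-fold changes. Only 67 genes were changed 1.5-fold, 67 2-fold and 66 4-fold there. In the real comparison 42.2% of genes were called, so these rates need not hold for it.

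The 50 lists and their members were chosen with earlier results of these data known. Of 939 entries, 930 matched the table. Genes were named by a rule (the 12 highest rises and 12 deepest falls with a mean of at least 100, up to 4 called members of each list, 20 followed genes and 5 differences each way), and 69 further members were named after their values were seen. The rises and falls were taken only from genes whose libraries did not overlap between the days. The differences were taken only from genes whose changes did not overlap between the arms. Some genes that the rule picks are not reported here. Positions are GRCm38, GENCODE M21, and promoters are RefSeq, GRCm38.p6. The Y box motif was added after the others. Replicate numbers did not pair the libraries (correlation of deviations 0.0146).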

Additional observations from a re-analysis of the deposited data

Results flagged for a closer look

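The change between day 1 and day 3 differed between SDS alone and SDS with Topsym, by the test of the difference itself, for 6683 genes. The highest differences were 10.42 for Retnlg, 9.08 for Mmp8, 8.35 for Chil3, 8.18 for Ngp and 7.43 for Cxcl5, all with the higher change in SDS alone. Ngp was not called by edgeR (5.97, adjusted p = 0.968). The lowest differences were -4.44 for Tmem254c, -3.81 for Sprr2a3, a small proline-rich envelope protein, -3.76 for Pglyrp2, an amidase that cleaves bacterial peptidoglycan, -3.52 for Depdc1a and -3.48 for Nrg1. Tmem254c had 124 and 95.9 at day 3 and 2.45 and 6.19 at day 1 with Topsym, and 71.6 and 4.86 at day 3 and 59.2 and 5.88 at day 1 in SDS alone, where the libraries of each day differed widely. Its reads and those of Sprr2a3 can be shared with near copies, and the Tmem254c difference lost its call in 6 settings (adjusted p = 0.0598 to 0.114), among them without the first day 1 or the second day 3 library of SDS alone (-2.88 and -2.63). The causes of these differences were not tested.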

How the results depend on the processing

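The counts of called genes kept within 1.5 times of those reported under each alternative but one. Requiring a log2 change of at least 1 left 2733 genes between the days (1461 higher, 1272 lower) and 2682 for the difference between arms (1764 higher, 918 lower), by construction of the stricter rule. Leaving out 1 library gave 6560 to 6702 genes between the days (3625 to 3852 higher, 2850 to 2952 lower) and 5573 to 5851 for the difference (2932 to 3072 higher, 2637 to 2823 lower). DESeq2 called 8392 between the days and edgeR 8758. Leaving the day 5 groups out of the fit, an alternative chosen after seeing the data, gave 9556. With the replicate block 7981 genes were called between the days (4480 higher, 3501 lower) and 6579 for the difference; the numbers do not pair the libraries, and of the genes named only Fkbp5 lost its call. With single libraries left out, the change of Tmem254c in SDS alone (0.019 in the reported fit, not called) ran from -1.80 without the first day 3 library and -1.55 without the second day 1 library to 1.83 without the second day 3 library, and the clock median from -0.11 without the first day 1 library to 0.049 without the second. Of 3679 values of 283 genes, those of the naming rule among them, under alternatives, 3583 kept their direction and their side of the threshold, and 88, from 25 genes, lost the call. TMM moved the median of all genes to 0.019. Of simulated 1.5-fold changes 55.2% were recovered, but few genes were changed in that simulation, so this rate need not hold here. A gene that was not called may still have changed 1.5-fold.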
